A study of Mus musculus with 18 samples.

Results

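Layer 4 (L4) was compared with layers 2-3 (L2-3) of the neocortex in the 3 mice that received GFP without FOXP2. The comparison was defined by the sample titles and used 6 of the 18 libraries of the series, 1 of L2-3 and 1 of L4 from each mouse, paired by the replicate number, since the dissected pieces of a layer were combined within a mouse. All mice were of the outbred CD-1 stock. Their cortex was electroporated in utero at E14.5 (embryonic days), which drives plasmid DNA from the ventricle into the cells lining it, and tissue was taken on postnatal day 7. The labels name an empty plasmid or FOXP2 cDNA together with Gfp cDNA, and the GFP mice are read here as those without FOXP2. In 3 further mice, called FOXP2 mice below, the plasmids carried human FOXP2 (huFOXP2, 2 mice) or mouse Foxp2 (moFoxp2, 1 mouse) together with Gfp. Layers were cut out of 300 µm sagittal sections and no cell sort is named, so a library held RNA of the dissected tissue and not of electroporated cells alone. The labels describe the cells of L4 as GFP-positive and those of the other layers as GFP-negative, and they use the word infragranular for layers 5-6 (L5-6) and for L2-3 alike, the latter being supragranular in anatomy. The L5-6 libraries of the same mice entered the fit to help estimate the spread and are otherwise quoted only as levels.

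The neocortex is built of layers whose neurons differ in origin, wiring and gene expression. L4 is the main target of sensory input from the thalamus and is marked in rodents by the nuclear receptor Rorb, while L2-3 neurons connect cortical areas and share Cux1 and Cux2 with L4. Above L2-3 lie layer 1, with few neurons and the reelin-producing Cajal-Retzius cells, and the meninges, a sheath of fibroblasts, vessels and macrophages around the brain. Below L4 lie the large projection neurons of layer 5 and the corticothalamic neurons of layer 6.

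Levels are given as CPM, a gene's reads relative to the library total after TMM scaling, a normalization that sets the bulk of genes equal. A gene was called higher or lower when the adjusted p of edgeR's quasi-likelihood test (Benjamini-Hochberg, over all genes tested) was under 0.05. Each mouse is 1 replicate. Mouse was a term of the fit, so differences in level between mice were taken out. The p-values rest on how the layer differences within a mouse vary between these 3 mice, with the L5-6 libraries included. The quasi-likelihood fit also moderates the spread of each gene with that of the other genes tested. The p-values thus do not measure the spread of a gene between these mice alone. Total counts of the 9 GFP libraries ranged from 10111149 to 23026898. In bulk tissue, fewer cells of a type and less RNA per cell cannot be told apart. GFP mouse 1 stood apart from the other GFP mice: compared library by library within a layer, chi-square over its degrees of freedom was 23.5 to 54.3 in the 6 pairs that held it and 8.89 to 11.4 in the 3 others.

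Of 15698 genes tested, 262 were higher in L4 (1.67%) and 690 were lower (4.4%). The lower genes differed by more: 433 of them differed at least 2-fold and 74 at least 8-fold, against 61 and 2 of the higher genes. The median log2 fold change was 0.65 over the higher genes, -1.23 over the lower genes and 0.02 over all genes tested. In 262 of 262 higher genes and 688 of 690 lower genes the difference had 1 sign in all 3 mice. The 3 L4 values lay above all 3 L2-3 values in 1314 genes (8.37%) and below them in 1765 (11.2%). Such a gap between the layers was present in 186 of the 262 higher genes and 625 of the 690 lower genes. The calls were made from these same values, so the shared sign and the gap are not separate evidence. The share of genes with 1 sign over all genes tested is not given.

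These counts depended on the mice. Without the pairing by mouse, 46 genes were higher and 330 lower. Without mouse 1, 1482 genes were higher and 2229 lower, of 15871 tested. Without mouse 2 the counts were 17 and 57, and without mouse 3 they were 4 and 15. Over 10 other settings, the 3 leave-outs included, 3 genes were called higher in every one, namely Fezf2, Nefm and Nefl. In the lower direction 14 genes were called in every setting. They included the meningeal fibroblast genes Dcn, Lum, Col1a1, Igf2 and Aldh1a2, the macrophage gene Lyve1, and Cpz, Slc22a6 and Fam180a. The other 5, named here after their values were seen, were Cd74, Clec14a, Gjb2, Mmrn1 and Col13a1. Each called gene named below lost its call without mouse 2 or mouse 3 unless it is among these 17, and none of them changed sign in any setting.

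**Figure D1:**
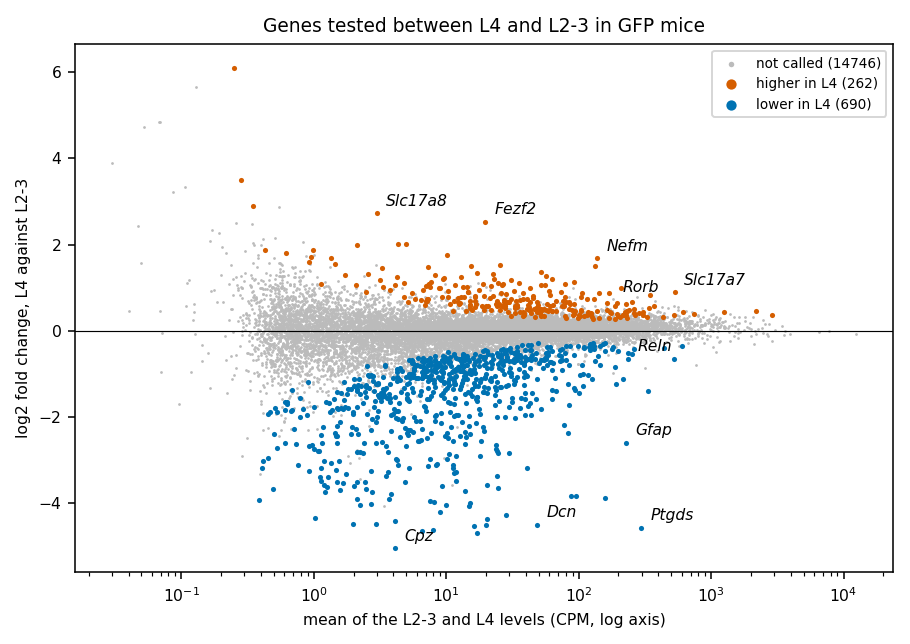
Log2 fold change of L4 against L2-3 in GFP mice (vertical axis) by the mean of the L2-3 and L4 levels in CPM (horizontal log axis), with 1 point per gene tested. The 690 lower genes (blue) reach a log2 fold change of -5.05 at Cpz, while the 262 higher genes (orange) mostly stay under 2, and Rorb lies among the genes not called (grey).

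**Figure D2:**
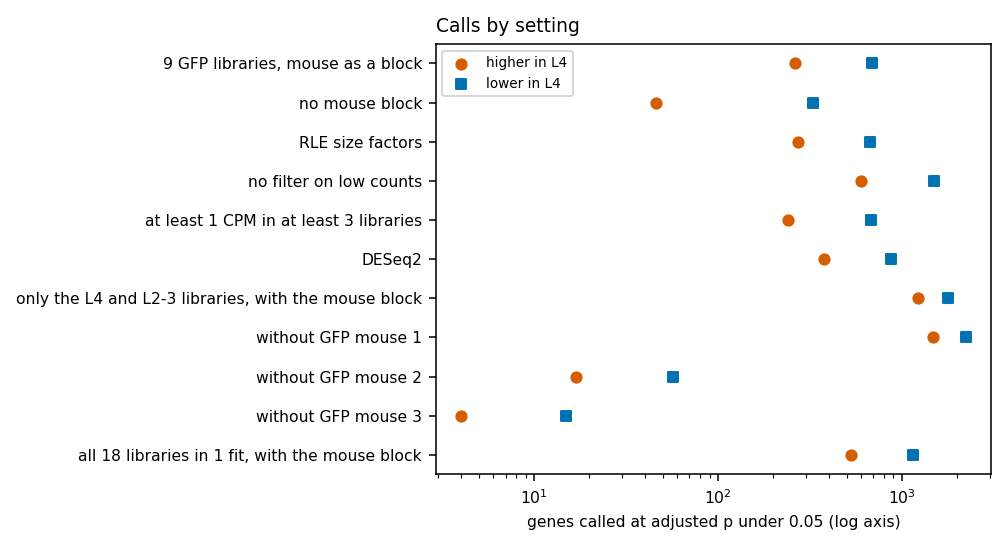
Number of genes called higher (circles) or lower (squares) in L4 (horizontal log axis) under the setting used here, in the top row, and under 10 others. The counts are lowest without GFP mouse 3 (4 and 15) and highest without GFP mouse 1 (1482 and 2229).

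The layer labels were first set against known markers. Rorb, the defining transcription factor of L4 neurons, was at 207, 87.7 and 124 CPM in the L2-3 libraries of mice 1, 2 and 3 and at 240, 191 and 247 CPM in their L4 libraries. L4 was the higher layer in each mouse, but the L2-3 value of mouse 1 lay above the L4 value of mouse 2, so the groups overlapped. The log2 fold change of Rorb was 0.72 ± 0.35 (SE, n = 3 mice) and it was not called (edgeR adjusted p = 0.288). Without mouse 1, Rorb was called, at a log2 fold change of 1.03 (edgeR adjusted p = 0.001789, where the adjusted p ranged from 0.001789 to 0.8214 over the 10 settings). In L5-6 Rorb averaged 71.5 ± 49.2 CPM (SD, n = 3).

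Of 10 genes listed as markers of L4 neurons, 2 were called higher and none lower, with a median log2 fold change of 0.52. Hsd11b1, which regenerates active glucocorticoid, was at 9.99, 5.29 and 6.17 CPM in L2-3 and at 16.8, 11.9 and 11.6 CPM in L4. Every L4 value exceeded every L2-3 value, and the log2 fold change was 0.92 ± 0.15 (edgeR adjusted p = 0.0101). Whrn, a scaffold protein first known from hearing, had a log2 fold change of 0.89 ± 0.22 (edgeR adjusted p = 0.049). Rora, a receptor related to Rorb, did not pass at 0.58 ± 0.15 (edgeR adjusted p = 0.0622), nor did the sodium channel subunit gene Scnn1a at 0.89 ± 0.26 (edgeR adjusted p = 0.0873). Without mouse 1, 6 of the 10 were higher and the median was 0.65. Without mouse 2 or mouse 3 none of the 10 was called, at medians of 0.42 and 0.45.

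The markers of upper-layer neurons differed little. Cux2 was at 397, 301 and 315 CPM in L2-3 and at 304, 316 and 305 CPM in L4, against 71.3 ± 31.5 CPM in L5-6. Its 2 groups overlapped and its log2 fold change was -0.13 ± 0.22 (edgeR adjusted p = 0.786). Cux1 had a log2 fold change of -0.19 ± 0.12 (edgeR adjusted p = 0.432). Of 12 genes listed for L2-3 neurons 2 were lower in L4 and none higher, with a median of -0.14. Pou3f2, a transcription factor of upper-layer neurons, had a log2 fold change of -0.39 ± 0.08 (edgeR adjusted p = 0.0337). The other was Stard8, at -0.89 ± 0.20 (edgeR adjusted p = 0.0401), which averaged 16.0 CPM in L5-6 and 14.3 to 16.0 CPM in L2-3.

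Neurofilament genes had the highest median of the 42 lists, 1.31 over 5 genes, of which 3 were higher and none lower. The lists and the marker Nefm were chosen with earlier results of these data known, so this rank is not separate evidence. Neurofilaments are the intermediate filaments of axons and are built from a light, a medium and a heavy subunit. Nefm, the medium subunit (chromosome 14, 68082590 to 68124846, minus strand, mm10), was at 66.2, 67.8 and 61.5 CPM in L2-3 and at 190, 214 and 224 CPM in L4. The L2-3 libraries were within a few CPM of each other and all L4 libraries were far above them. Its log2 fold change was 1.68 ± 0.11 (edgeR adjusted p = 0.000419), and over the 10 other settings it stayed between 1.58 and 1.74. Levels were higher still in L5-6, at 310, 454 and 401 CPM.

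Nefl, the light subunit, was at 65.6, 81.1 and 63.0 CPM in L2-3 and at 183, 206 and 199 CPM in L4, with a log2 fold change of 1.49 ± 0.11 (edgeR adjusted p = 0.000691). Nefh, the heavy subunit, had 9.46 to 17.6 CPM in L2-3 and 29.3 to 34.1 CPM in L4, again with no overlap, and a log2 fold change of 1.31 ± 0.26 (edgeR adjusted p = 0.0229). Ina, the neuronal intermediate filament internexin, also had all L4 values above all L2-3 values, but its log2 fold change of 0.36 ± 0.13 did not pass (edgeR adjusted p = 0.142), and Prph was at 0.09 ± 0.20. Nefm and Nefl overlap on opposite strands in the GENCODE M21 annotation, which puts 19.2% of the exonic bases of Nefm and 32.8% of those of Nefl under the other gene. Without the use of strand, which is not given in the sources used here, reads there cannot be assigned to 1 of them. Nefh is on another chromosome and has no such overlap with them.

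**Figure D3:**
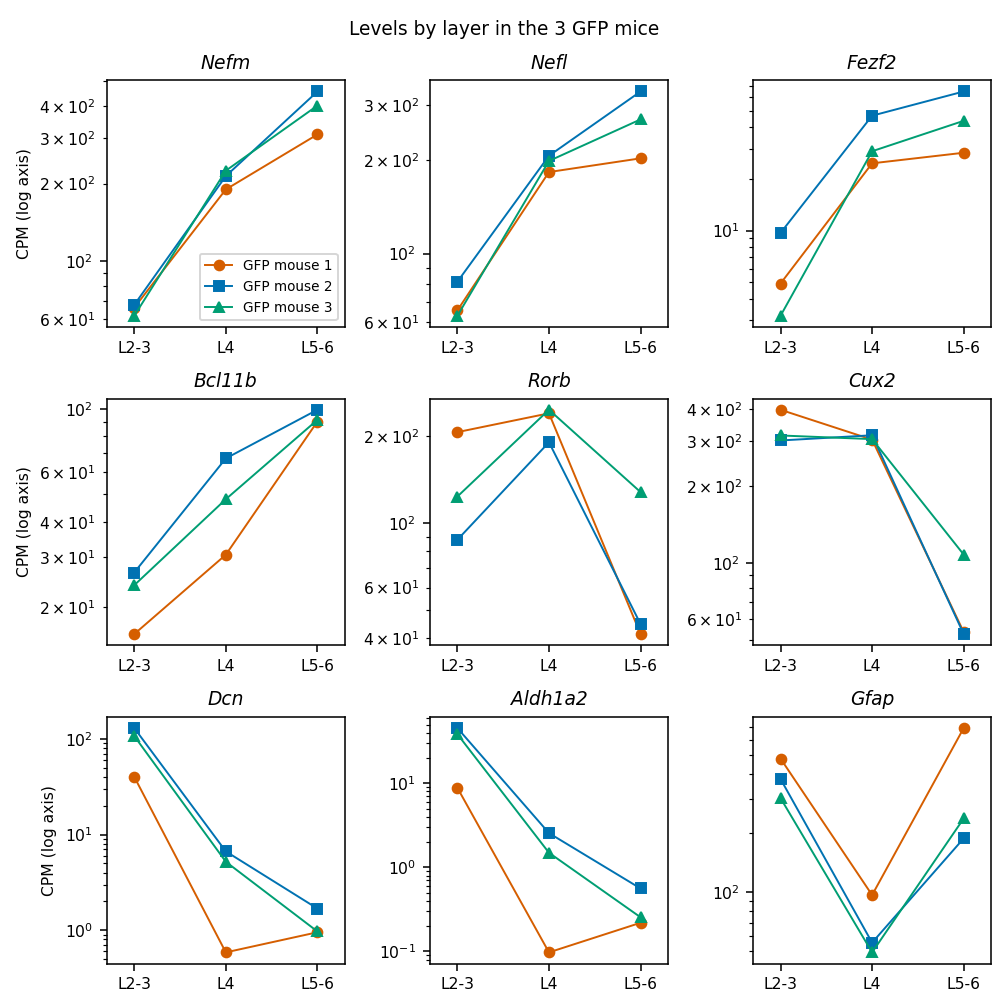
CPM (log axes, different in each panel) of 9 genes in L2-3, L4 and L5-6, with 1 line per GFP mouse. Nefm, Nefl, Fezf2 and Bcl11b climb from L2-3 to L5-6 in each mouse, Dcn and Aldh1a2 are highest in L2-3, Gfap is lowest in L4, and the Rorb level of mouse 1 in L2-3 (207 CPM) is close to its L4 level (240 CPM).

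Of 13 genes listed as markers of layer 5 projection neurons 6 were called higher in L4, 7 were not called and none was lower. The median was 0.65, and 3 of the 13 had log2 fold changes below 0. Fezf2, the transcription factor that specifies subcerebral projection neurons, was at 4.91, 9.68 and 3.18 CPM in L2-3 and at 24.7, 46.8 and 29.0 CPM in L4. The groups did not overlap, and mouse 2 was the highest in both. Its log2 fold change was 2.53 ± 0.20 (edgeR adjusted p = 0.000799). In L5-6 the same mice had 28.5, 64.8 and 43.7 CPM, so that within each mouse the L4 level was nearer to that of L5-6 than to that of L2-3.

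Pcp4, a calmodulin-binding peptide of deep-layer neurons, was at 3.37 to 6.51 CPM in L2-3 and 14.1 to 16.9 CPM in L4 (log2 fold change 1.75 ± 0.17, edgeR adjusted p = 0.00147). By the annotation 23.7% of its exonic bases lie under Igsf5. Bcl11b (also known as Ctip2), which acts with Fezf2 in corticospinal neurons, was at 16.1, 26.5 and 23.9 CPM in L2-3 and at 30.6, 66.9 and 48.1 CPM in L4. Its log2 fold change was 1.11 ± 0.17 (edgeR adjusted p = 0.00788). Etv1, a transcription factor of layer 5, and Sulf2, an enzyme that trims heparan sulfate, had log2 fold changes of 1.05 ± 0.09 and 0.65 ± 0.09. Crym, a thyroid hormone binding protein, was called at 1.24 ± 0.24 although its groups overlapped, with 2.51 to 17.7 CPM in L2-3 and 9.27 to 28.5 CPM in L4. Ldb2 (0.76 ± 0.24) and S100a10 (0.60 ± 0.15) did not pass. Without mouse 1, 8 of the 13 were higher and 1 lower. Without mouse 2 the counts were 4 and 0, and without mouse 3 they were 1 and 0.

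Promoter windows of 3 of the called layer 5 genes, Fezf2, Bcl11b and Pcp4, are shown for their sequence around the start. RefSeq promoter sequences of build GRCm38.p6, each a window of 300 bases around an annotated start, matched 9 of the 13 listed genes. They were searched on both strands for the TATA box TATAAA, the GC box GGGCGG, the E-box CAGCTG and the nuclear receptor half-site AGGTCA, which do not overlap each other in the windows shown. Capitals mark the matches. The windows are Fezf2 at chr14:12345816-12346115 (minus strand), Bcl11b at chr12:108003365-108003664 (minus strand) and Pcp4 at chr16:96467356-96467655 (plus strand).
Fezf2: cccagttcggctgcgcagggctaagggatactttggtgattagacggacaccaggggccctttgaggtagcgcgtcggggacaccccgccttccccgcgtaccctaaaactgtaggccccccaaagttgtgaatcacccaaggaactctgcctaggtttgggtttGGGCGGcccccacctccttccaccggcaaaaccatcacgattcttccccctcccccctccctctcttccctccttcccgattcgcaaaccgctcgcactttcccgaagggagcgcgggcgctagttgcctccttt
Bcl11b: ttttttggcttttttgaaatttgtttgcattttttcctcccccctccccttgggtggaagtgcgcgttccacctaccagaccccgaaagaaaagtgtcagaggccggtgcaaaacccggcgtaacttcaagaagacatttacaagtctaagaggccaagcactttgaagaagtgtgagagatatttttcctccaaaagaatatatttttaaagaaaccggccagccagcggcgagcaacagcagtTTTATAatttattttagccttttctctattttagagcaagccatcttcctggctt
Pcp4: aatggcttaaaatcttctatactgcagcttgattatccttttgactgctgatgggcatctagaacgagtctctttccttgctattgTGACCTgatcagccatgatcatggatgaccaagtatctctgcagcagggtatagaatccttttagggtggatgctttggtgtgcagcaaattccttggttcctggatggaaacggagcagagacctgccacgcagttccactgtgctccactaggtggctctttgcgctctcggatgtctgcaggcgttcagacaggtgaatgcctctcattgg
Fezf2 held 1 GC box, Bcl11b 1 TATA box and Pcp4 1 half-site, the latter 2 read on the strand opposite to the one printed. Of the other called genes with a window, Sulf2 held a TATA box, a GC box and an E-box in 1 of its 2 windows and Etv1 a TATA box in 1 of its 2. Of the 4 genes with a window that were not called, 2 held a GC box, 1 an E-box and 1 no match. Over all 32851 windows in the table, 35.7% held a GC box, 13.6% a TATA box, 16.3% an E-box and 16.3% a half-site. A match of this kind is a description of the letters and not a binding site.

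The layer 6 and subplate list was split. Of 15 genes 4 were higher in L4 and 2 lower, with a median of 0.42. Without mouse 1 the counts were 6 and 4 and the median 0.21. Without mouse 2 the counts were 3 and 0, and without mouse 3 they were 0 and 0. Nxph3, a secreted ligand of neurexins, was at 1.26, 3.60 and 1.21 CPM in L2-3 and at 10.6, 6.68 and 6.56 CPM in L4, a log2 fold change of 2.00 ± 0.35 (edgeR adjusted p = 0.0143). Syt6 (1.29 ± 0.22), Rprm (1.27 ± 0.15) and Hs3st4 (1.19 ± 0.17) were the other 3, and in none of the 4 did the groups overlap. Their L5-6 levels were far above those of L4 for Nxph3 (83.3 CPM) and Syt6 (104 CPM, against 9.23 to 13.6 CPM in L4). Foxp2 itself, a gene of layer 6 neurons, was at 1.77 to 6.53 CPM in L2-3, 5.38 to 8.74 CPM in L4 and 60.8 CPM in L5-6, and was not called (0.58 ± 0.31, edgeR adjusted p = 0.338). The 2 lower genes were Ctgf (-2.005 ± 0.37) and Sulf1 (-1.60 ± 0.36), which cells other than subplate neurons express too. The cells behind the values of the higher and lower genes of this list were not tested. The summed level of the list was 269 to 324 CPM in L2-3, 388 to 417 CPM in L4 and 1052 to 1506 CPM in L5-6. The summed level of 12 myelin genes was 204 to 287 CPM in L2-3, 153 to 232 CPM in L4 and 929 to 3651 CPM in L5-6. The part of tissue from the next layer in the higher L4 levels was not tested.

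Of 17 genes of vesicle release and vesicular glutamate transport 3 were higher and none lower. Slc17a8, the vesicular glutamate transporter VGLUT3, had the largest log2 fold change of all called higher genes with a mean of at least 1 CPM, 2.72 ± 0.27 (edgeR adjusted p = 0.00149). It was at 0.799, 1.07 and 0.318 CPM in L2-3 and at 3.32, 10.6 and 1.85 CPM in L4, so that each mouse differed in the same direction while the L4 levels spread widely. Slc17a7, the main glutamate transporter of cortical vesicles (VGLUT1), was at 392, 334 and 383 CPM in L2-3 and at 644, 669 and 759 CPM in L4 (0.89 ± 0.18, edgeR adjusted p = 0.0254). Syt2, a fast calcium sensor of release, was the third called gene (1.503 ± 0.34, edgeR adjusted p = 0.038). The list had a median of 0.39, and 15 of its 17 genes were above 0, against 8468 of all 15698 genes tested. Among the 15 largest higher differences with a mean of at least 1 CPM were also Il1rapl2 (2.01 ± 0.19), a synaptic adhesion receptor, Esrrg (1.53 ± 0.17), an orphan nuclear receptor, Rxfp1 (1.47 ± 0.15), the relaxin receptor, and Hs3st2 (1.37 ± 0.16), which sulfates heparan. Gm30648, Ccdc129 and Gm17634 had log2 fold changes of 1.55 to 1.99. Gm17634 shares 22.2% of its exonic bases with Rnf152 on the other strand.

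Ion channel genes were called in 1 direction only in this fit. Of 19 potassium and HCN channel genes 5 were higher in L4 and none lower. Kcna1, the Kv1.1 channel of axons, was at 0.971, 2.53 and 1.91 CPM in L2-3 and at 3.61, 5.03 and 5.70 CPM in L4, a log2 fold change of 1.44 ± 0.26 (edgeR adjusted p = 0.0155). Kcnc4 (0.67), Kcnab1 (0.57) and Kcna2 (0.37) were among the others called, with smaller differences. Scn8a, the sodium channel of the axon initial segment, was the 1 called gene of 8 sodium channel genes at 0.46 ± 0.11 (edgeR adjusted p = 0.0468). Cacna2d3 (0.60), Cacnb4 (0.49) and Cacna1e (0.43) were called among 12 calcium channel genes. The medians of these 3 lists were 0.31, 0.37 and 0.31. Without mouse 1, 14, 7 and 9 genes of them were higher and none lower, where 1482 of all 15871 genes tested were higher. Without mouse 2 or mouse 3 no gene of these lists was called.

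Receptor genes followed with fewer calls. Grik3, a kainate receptor subunit, was at 28.3, 39.5 and 39.97 CPM in L2-3 and at 58.1, 80.3 and 86.7 CPM in L4 (1.06 ± 0.09, edgeR adjusted p = 0.00115), and Grin3a, an NMDA receptor subunit, was called at 0.61 ± 0.10. They were the called genes among 20 glutamate receptor genes, whose median was 0.26. Gabra5 was called at 0.49 ± 0.11 among 12 GABA-A receptor genes (median 0.19). Among 19 tested receptors for monoamines and acetylcholine the serotonin receptors Htr1f (1.86 ± 0.44) and Htr2a (1.02 ± 0.14) and the nicotinic subunit Chrna5 (1.09 ± 0.26) were higher and none was lower (median 0.23). Without mouse 2 the median of this list was 0.45 and that of the glutamate receptor list 0.14. The levels of Htr1f were under 1 CPM in all 6 libraries, and its call was lost with DESeq2, in 1 fit over all 18 libraries and without mouse 1.

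Adhesion genes of the neurexin and contactin families all had positive log2 fold changes, 16 of 16, with a median of 0.29, and 5 were called. Over all genes tested, 8468 of 15698 log2 fold changes were above 0. Cntnap1, which joins axon and myelin beside the node of Ranvier, was at 10.6 to 15.5 CPM in L2-3 and 24.3 to 27.0 CPM in L4 (1.09 ± 0.17, edgeR adjusted p = 0.00927). Nrxn3 (0.74), Cntnap4 (0.77), Cntn5 (0.56) and Nlgn1 (0.40) had groups that overlapped, with mouse 1 the lowest in both layers. Of 24 cadherins and protocadherins 4 were higher, among them Cdh7 (0.81 ± 0.14) and Cdh22 (0.69 ± 0.14), and Pcdh8 was lower (-0.64 ± 0.14), with a median of 0.24. Without mouse 2 the median of the cadherin list was 0.13 and that of the contactin and neurexin list 0.19. Guidance genes were called in both directions. Sema3e, a repellent cue, was higher (1.21 ± 0.18, edgeR adjusted p = 0.00716) and Nrp2, a semaphorin receptor, lower (-1.63 ± 0.19, edgeR adjusted p = 0.00295), and the other 17 of 19 semaphorin, plexin and neuropilin genes were not called (median 0.02). Of 28 ephrin, Slit, Robo and netrin genes Efna5 was higher (0.72 ± 0.17) and Efnb2 lower (-0.36 ± 0.08), with a median of 0.03.

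Of the interneuron genes, 2 of 15 were called. Sst, the peptide somatostatin, was at 17.4, 18.8 and 19.5 CPM in L2-3 and at 34.6, 43.03 and 50.5 CPM in L4, with 85.2 CPM in L5-6 (1.18 ± 0.11, edgeR adjusted p = 0.00137). Lhx6, the transcription factor of interneurons born in the medial ganglionic eminence, had a log2 fold change of 0.67 ± 0.12 (edgeR adjusted p = 0.0147). The median of the list was 0.37, and its summed level was 290 to 348 CPM in L2-3 and 348 to 430 CPM in L4. Pdyn, the precursor of dynorphin, was the other called gene of 16 neuropeptides (1.12 ± 0.19), whose median was 0.10. The activity-induced genes Arc (1.07 ± 0.18) and Egr4 (1.01 ± 0.24) were higher and 13 of 15 such genes were not called, with a median of -0.06. Acan, the main proteoglycan of perineuronal nets, was higher (0.95 ± 0.15) while Tnc, a matrix protein made by glia, was lower (-1.29 ± 0.23), among 9 perineuronal matrix genes with a median of -0.50. Of 6 neurotrophin genes tested none was called (median -0.11).

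The list with the lowest median was that of meningeal fibroblasts, a rank among lists chosen, like the marker Dcn, with earlier results known. All 11 tested members of the meningeal fibroblast list were lower, with a median of -3.89. The 1 other member, Slc47a1, did not pass the filter on low counts, and without the filter all 12 were lower. A gene nearly absent from L4 can pass this filter through its L2-3 libraries, and could then hardly be other than lower. Dcn, the collagen-binding proteoglycan decorin (chromosome 10, 97479609 to 97518143, plus strand, mm10), was at 40.4, 131 and 108 CPM in L2-3 and at 0.586, 6.68 and 5.202 CPM in L4. Mouse 1 was the lowest in both layers, and every L2-3 value exceeded every L4 value. The log2 fold change of Dcn was -4.51 ± 0.25 (edgeR adjusted p = 0.00014), and it stayed between -4.68 and -4.36 over the 10 other settings. In L5-6 Dcn was at 0.951 to 1.68 CPM.

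Other genes of fibroblasts had the same order. Lum, a second collagen-binding proteoglycan, was at 9.88, 22.9 and 17.9 CPM in L2-3 and at 1.76, 4.45 and 3.53 CPM in L4 (-2.38 ± 0.13, edgeR adjusted p = 0.00014). Col1a1 and Col3a1, the fibrillar collagens, were lower by -3.85 ± 0.29 and -3.84 ± 0.37. Ptgds, the prostaglandin D synthase of the arachnoid, was at 10.3, 802 and 905 CPM in L2-3 and at 1.07, 31.5 and 30.6 CPM in L4. There the L2-3 library of mouse 1 lay below the L4 libraries of the other mice, while within each mouse L4 was lower (-4.57 ± 0.59, edgeR adjusted p = 0.0047). Slc6a13, Slc22a6 and Slc13a4, solute carriers of the barrier layers, had log2 fold changes of -4.37, -4.69 and -4.51. Cpz, a carboxypeptidase of the matrix, had the largest difference of all called genes with a mean of at least 1 CPM, from 3.60, 11.3 and 9.04 CPM in L2-3 to 0.0976, 0.330 and 0.271 CPM in L4 (-5.05 ± 0.28). Fam180a, Slc36a2, Sphk1, Mrgprf, Siglec1, Fmod, Itih2 and Ogn, the others of the 15 largest, lay between -4.62 and -4.08, and the L4 library of mouse 1 held no read of Fam180a, Mrgprf or Siglec1.

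Summed over the meningeal list, the level was 428 CPM in the L2-3 library of mouse 1 and 2065 and 1847 CPM in those of mice 2 and 3. In L4 it was 29.6, 129 and 88.3 CPM, and in L5-6 it was 39.1 to 59.5 CPM. The difference between layers was thus present in each mouse, and the L2-3 library of mouse 1 held less of it than the other 2. No gene of the list was at 0 in all L4 libraries. Of 24 tested genes of other extracellular matrix 20 were lower (median -1.82) and none higher. Among them Col6a1 was at 18.6, 60.9 and 53.1 CPM in L2-3 and at 2.93, 6.18 and 3.53 CPM in L4 (-3.36 ± 0.39). Eln, the elastin gene, was at 104 to 169 CPM in L2-3 and at 23.1 to 32.7 CPM in L4 (-2.19 ± 0.27). The part of meningeal tissue taken with L2-3 in these differences was not tested. Its part in the values of the neuronal lists was not tested either.

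Lists of macrophage and vessel cells also held lower genes. All 6 genes of border macrophages, which live in the meninges and around vessels, were lower, with a median of -3.55. Lyve1 was at 8.22, 33.7 and 14.4 CPM in L2-3 and at 0.195, 2.72 and 0.678 CPM in L4 (-4.06 ± 0.30, edgeR adjusted p = 0.00067), and Mrc1, the mannose receptor, at 24.4 to 64.7 CPM against 8.39 to 12.5 CPM (edgeR adjusted p = 0.00343). Microglial genes, from the macrophages of the tissue itself, differed less: 3 of 11 were lower, C1qa, Tyrobp and C1qc at -0.58 to -0.67, with a median of -0.50. Of 13 endothelial and pericyte genes 8 were lower (median -0.80). Vtn, made by pericytes, was at 99.0, 167 and 149 CPM in L2-3 and at 30.3, 28.6 and 22.1 CPM in L4 (-2.38 ± 0.24), and Cldn5, the tight junction protein of brain vessels, had a log2 fold change of -1.03 ± 0.12. In smooth muscle 4 of 6 tested genes were lower, led by Acta2 (21.0 to 22.4 CPM in L2-3, 1.18 to 2.97 CPM in L4, -3.48 ± 0.57), with a median of -1.82. None of 4 tested genes of red blood cells was called (median -0.75).

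Layer 1 genes were lower as well. All 5 tested genes of Cajal-Retzius cells and layer 1 were called, with a median of -2.10. The list held 2 more, Lhx5 and Ebf2, which did not pass the filter on low counts. Without the filter 5 of 7 were lower and 0 higher. A gene low in L4 can pass the filter through its L2-3 libraries and could then hardly be other than lower. Ebf3, for example, averaged 2.44 CPM in L2-3 and 0.57 CPM in L4. Reln, which encodes reelin, was at 166, 348 and 347 CPM in L2-3 and at 109, 241 and 198 CPM in L4 (-0.65 ± 0.09, edgeR adjusted p = 0.00641). Its groups overlapped, since mouse 1 was low in both layers, and reelin is also made by interneurons. Ndnf, a marker of layer 1 interneurons, was at 36.9, 74.9 and 76.8 CPM in L2-3 and at 16.8, 16.3 and 14.4 CPM in L4 (-1.96 ± 0.26), and Trp73, a transcription factor of Cajal-Retzius cells, at 5.77 to 9.79 CPM against 1.40 to 2.25 CPM (-2.10 ± 0.35).

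Of 14 astrocyte genes 4 were lower and the median was -0.17. Gfap, the intermediate filament of astrocytes that is strong in the glial border under the pia, was at 482, 379 and 303 CPM in L2-3 and at 96.7, 55.2 and 49.3 CPM in L4 (-2.60 ± 0.24, edgeR adjusted p = 0.00147). Gjb6, a gap junction protein, was lower at -1.35 ± 0.28, and Chrdl1 and Aldh1l1 were called at -0.53 and -0.45. Aqp4, the water channel of astrocyte endfeet, just missed the threshold (-0.86 ± 0.22, edgeR adjusted p = 0.0539). Without mouse 2 the median of the astrocyte list was -0.10 and that of the microglial list -0.32. In L5-6 Gfap was at 691, 189 and 238 CPM, above the L4 level in each mouse.

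Retinoic acid is made in the meninges and acts on the cortex below. Aldh1a2, the enzyme that makes it there, was at 8.85, 45.4 and 38.4 CPM in L2-3 and at 0.0976, 2.56 and 1.49 CPM in L4 (-4.53 ± 0.25, edgeR adjusted p = 0.00014). Of 15 genes of the pathway 4 were lower and none higher (median -0.61), among them Aldh1a1 (-2.14 ± 0.21) and the retinoic acid carrier Crabp2 (-3.79 ± 0.48). Aldh1a1 averaged 27.7 CPM in L2-3, 6.16 CPM in L4 and 26.8 CPM in L5-6, while Aldh1a2 averaged 0.345 CPM in L5-6. Of 10 genes of the insulin-like growth factor system 5 were lower (median -0.36), with Igf2 at 13.3, 37.8 and 33.5 CPM in L2-3 and at 0.781, 3.71 and 1.18 CPM in L4 (-4.00 ± 0.36). By the annotation 62.8% of the exonic bases of Igf2 also lie under Gm49394. The others were the binding proteins Igfbp2, Igfbp4, Igfbp6 and Igfbp7, while the receptor Igf1r (-0.15 ± 0.11) and Igf1 (-0.25 ± 0.10) were not called. Aldh1a2, Crabp2 and Igf2 also stand in the meningeal list, so these lists are not separate evidence.

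**Figure D4:**
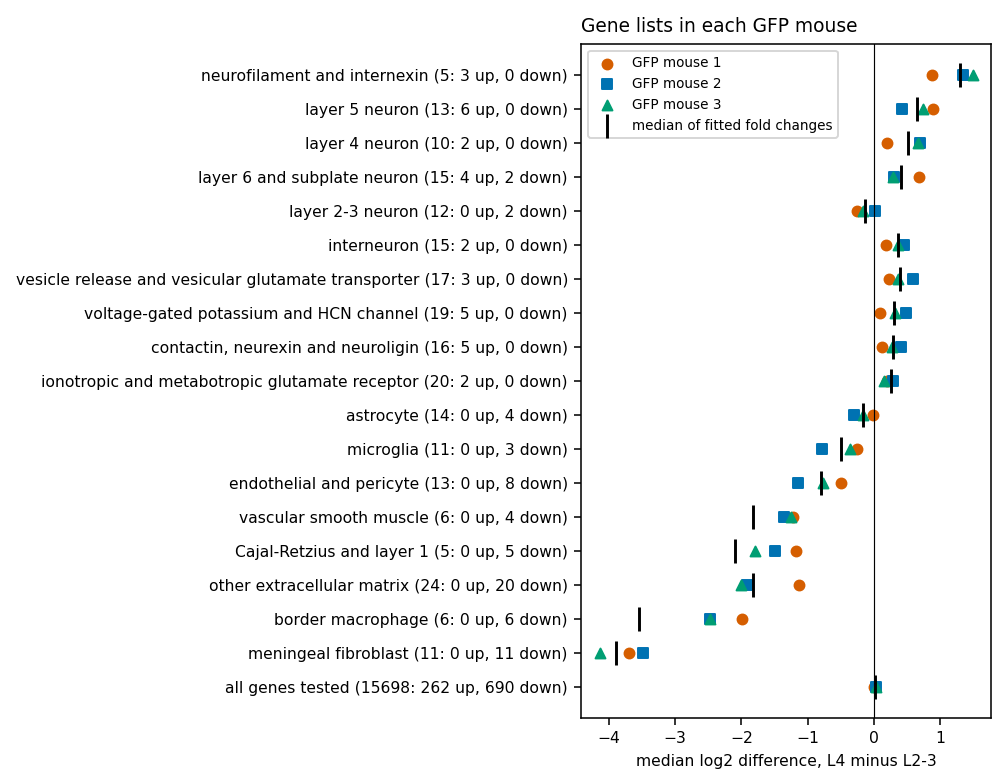
Median log2 difference between L4 and L2-3 over the tested genes of 18 lists and of all genes, for each GFP mouse (coloured points, from CPM plus 0.5) and as the median of the fitted fold changes (black bars); the labels give genes tested, called higher and called lower. The meningeal list lies lowest in all 3 mice, the neurofilament list lies highest in mice 2 and 3 and the layer 5 list in mouse 1, and the points of the border macrophage list are nearer to 0 than its bar.

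The remaining lists held few calls. Housekeeping lists were flat: 0 of 17 nuclear oxidative phosphorylation genes, 0 of 7 tested mitochondrially encoded genes and 0 of 15 cholesterol synthesis genes were called, with medians of 0.07, -0.08 and -0.02. All 18 cytosolic ribosomal protein genes had negative log2 fold changes (median -0.24), as did 7230 of all 15698 genes tested. Of the 18, Rplp0 was called (-0.34 ± 0.07, edgeR adjusted p = 0.0321). Without mouse 1 there were 16 called, and without mouse 2 or mouse 3 none. Of 10 genes of dividing cells Ube2c was lower (-0.69 ± 0.16, list median -0.52), and 22.8% of its exonic bases lie under Tnnc2. Oligodendrocyte precursors had 0 of 8 (median -0.02) and myelinating cells 1 of 11 (median -0.08). The called gene was Ermn, which was higher in L4 (2.90 ± 0.69) at under 1 CPM in each of the 6 libraries. Neighbouring regions gave 0 of 8 striatal genes (median -0.07), 1 of 6 hippocampal genes (Dsp, -2.28 ± 0.30, median -0.53) and 1 of 6 tested choroid plexus and ependymal genes. The latter was Kl, at -2.38 ± 0.36. The median of its list was 1.14 in the fit, but 0.06, -0.06 and 0.71 in mice 1, 2 and 3 when taken from CPM plus 0.5.

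In the FOXP2 mice more genes were called between the same 2 layers. Of 15396 genes tested there, 3003 were higher in L4 (19.5%) and 3614 lower (23.5%). These mice share no library with the GFP mice. Numbers of calls depend on the spread within each set of mice as well as on the size of the differences. Without mouse 1 the counts in GFP mice were 1482 and 2229. The part of the spread in the larger counts was not tested. Of the 262 genes higher in GFP mice, 196 were also higher in FOXP2 mice, which is 74.8% of the first list and 6.53% of the second, and 1, Zdhhc22, named after its values were seen, was lower. Of the 690 lower genes 672 were also lower, 97.4% of the first list and 18.6% of the second, and none was higher. For Nefm the log2 fold change was 1.70 ± 0.20 in FOXP2 mice, close to its value in GFP mice, with a difference of 0.06 ± 0.26 between the 2 sets of mice. For Dcn it was -5.78 ± 0.27.

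The difference between the 2 sets of mice was tested in 1 fit over all 18 libraries. No gene of 15952 passed (0% called by edgeR's quasi-likelihood test, smallest adjusted p = 0.0542), with 2831 genes at an unadjusted p under 0.05. By DESeq2 282 genes had a higher contrast in FOXP2 mice and 245 a lower one, and over the 12 libraries of L4 and L2-3 alone edgeR called 330 and 400. Rorb had a log2 fold change of 2.12 ± 0.24 in FOXP2 mice, where it was at 59.4, 46.8 and 41.6 CPM in L2-3 and at 272, 154 and 229 CPM in L4. Its L4 levels overlapped with those of the GFP mice, while its L2-3 levels were below all 3 of theirs (87.7 to 207 CPM). The difference of 1.44 ± 0.48 between the 2 fold changes did not pass (edgeR adjusted p = 0.148, and 2.362e-25 to 0.611 over its 12 other settings). Of the L4 list 9 of 10 genes were higher in FOXP2 mice and 1 was lower (median 1.08, against 0.52 in GFP mice).

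Among genes of the layer 5 and layer 6 lists, none passed for the difference. Nxph3 was not called in FOXP2 mice (-0.83 ± 0.54), and its difference from the GFP mice was -2.78 ± 0.71 (edgeR adjusted p = 0.0876). Syt6 had a difference of -1.54 ± 0.41 (edgeR adjusted p = 0.0945) and Sulf2 one of -0.64 ± 0.15 (edgeR adjusted p = 0.069). Fezf2 was called higher in FOXP2 mice at 2.14 ± 0.32, with a difference of -0.34 ± 0.43, and Bcl11b (0.62), Etv1 (0.47) and Hs3st4 (1.11) were called higher there too. Hs3st4 had a difference of -0.04. For Foxp2 the difference was -0.01, but its levels were unlike in the 2 sets of mice. It averaged 31.2 CPM in L2-3 and 44.3 CPM in L4 of FOXP2 mice, against 4.51 and 6.69 CPM in GFP mice. The plasmids of the FOXP2 mice carried human FOXP2 or mouse Foxp2, and their part in the Foxp2 counts was not tested. Of the layer 5 list 5 were higher and 2 lower in FOXP2 mice (median -0.02, against 0.65), and the difference of these medians was not tested. Cux1 was lower in L4 in each GFP mouse and higher in each FOXP2 mouse, with a difference of 0.64 ± 0.21 that did not pass (edgeR adjusted p = 0.148). Among the genes of smallest p for the difference, with an edgeR adjusted p of 0.0542 each, were Lum (-1.31 ± 0.21), the chemokine gene Cxcl12 (-1.33) and the protease inhibitor Reck (-1.46), all more strongly lower in L4 of FOXP2 mice, and Btbd8 (0.91). The summed meningeal level of the L2-3 libraries was 1496 to 4597 CPM in FOXP2 mice and 428 to 2065 CPM in GFP mice, and its part in these differences was not tested.

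**Figure D5:**
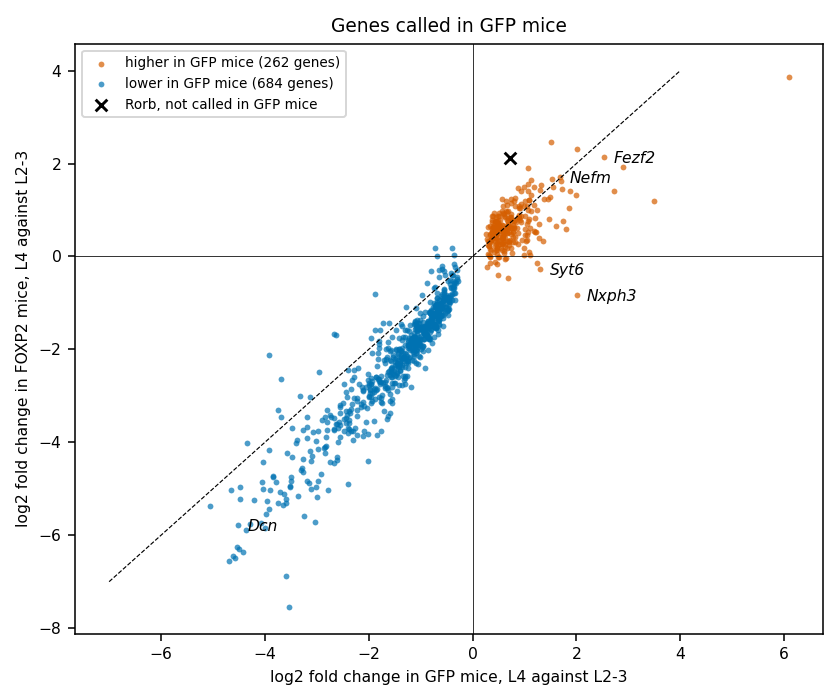
Log2 fold change of L4 against L2-3 in FOXP2 mice (vertical axis) by that in GFP mice (horizontal axis) for genes called higher (orange, 262 genes) or lower (blue, 684 of the 690 genes, those tested in both) in GFP mice, with Rorb as a cross and the line of equal values dashed. Most lower genes lie under the dashed line, and Nxph3 lies at 2.00 in GFP mice and at -0.83 in FOXP2 mice.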

How the data were processed

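The authors deposited raw read counts per gene, whole numbers with no normalization, for 54446 genes in 18 libraries. Per the submitters' processing notes STAR, HTSeq and mm10 were used. Versions, gene models, strand and the handling of reads with several matches are not stated in the notes or labels. GENCODE M21 gave positions and gene types (54409 identifiers matched without version).

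In R 4.3.3, edgeR 4.0.16 fitted its quasi-likelihood model to the counts of the 9 GFP libraries after filterByExpr (minimum count 10, minimum total count 15) and TMM normalization, with layer and mouse as terms (4 residual degrees of freedom). FOXP2 mice were fitted alike, and the difference in 1 fit over 18 libraries with a layer by FOXP2 term. SE is the log2 fold change over the square root of F, so it holds the same moderated spread. The fit was tested on simulated counts with a fixed spread and no mouse effect. Those counts lack the differences between mice seen here, so they do not test the fit under them. DESeq2 1.42.0 was an alternative. CPM are means ± SD over mice.

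The pairing by mouse comes from the labels. In the 9 pairs of libraries of 1 GFP mouse, deviations from layer means correlated at 0.262 to 0.673. Between different GFP mice they correlated at -0.509 to -0.003. Taking deviations from a mean over the same mice itself pushes the values between mice below 0.

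Named genes were 8 fixed ones, up to 15 per direction of largest fold (all mice of 1 sign, at least 1 CPM), up to 6 called and 3 uncalled per list, and 5 per direction for the difference. The comparison, its markers and the 42 gene lists (541 genes) were chosen with earlier results of these data known. Some of the genes so chosen are not reported here.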

Additional observations from a re-analysis of the deposited data

How the results depend on the processing

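With the replicate block left out, 46 genes were higher and 330 lower in L4 of GFP mice. With no filter on low counts there were 597 and 1489, with only the L4 and L2-3 libraries 1217 and 1785, and with all 18 libraries in 1 fit 527 and 1156. Leaving out 1 mouse gave 4 to 1482 higher and 15 to 2229 lower genes, and the cause was not tested. RLE size factors, a stricter filter and DESeq2 kept both counts within 1.5 times. For FOXP2 mice every alternative run did. For the difference between FOXP2 and GFP mice, RLE size factors gave 1 gene with a higher contrast and 0 with a lower one, no filter 534 and 792, DESeq2 282 and 245, the 12 libraries of L4 and L2-3 330 and 400, and leaving out a mouse 0 to 5 and 0 to 9. The sign of some uncalled values turned when a mouse was left out: the Prph log2 fold change ranged from -0.0803 to 0.283, the median log2 fold change, choroid plexus and ependyma, from -0.0259 to 1.757, and the median log2 fold change, striatal neuron, from -0.117 to 0.0555. Fits without 1 mouse rest on 2 mice. Genes under a few CPM and folds against L4 levels near 0 are limited by depth.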
